A study of Arabidopsis thaliana with 9 samples.

Results

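The genes described here are the SWEET sugar transporters linked to root and phloem, SWEET2, SWEET10, SWEET11, SWEET12, SWEET16 and SWEET17. They were chosen by name. A member was followed through the probe set that the platform annotation assigned to it alone, and 5 of the 6 had such a probe set, 1 each. SWEET12 was not listed in the annotation used and was not analysed here. The 5 probe sets were among 22810 on the array and among the 15818 bright enough to be tested.

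Roots of *Arabidopsis thaliana* ecotype Wassilewskija (WS) were profiled on Affymetrix ATH1 arrays after 24 h in a controlled atmosphere, entered when seedlings were 5 d old. The groups were 50 kPa, where oxygen declined together with total pressure, 50 kPa/NormOx, where oxygen was added back to a partial pressure of 21 kPa at the same total pressure of 50 kPa, and 97 kPa, the local ambient pressure. All groups were light-grown on vertical plates that contained sucrose and the fungicide benomyl, and carbon dioxide was held at 0.05 kPa in all of them. Each group had 3 arrays, each made from a tube of pooled plants from a separate chamber, so that the p-values below measure the spread between such tubes. Values are linear MAS5 signals, which compare the same probe set between arrays but not different probe sets with each other, and changes are on the log2 scale.

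SWEET proteins are membrane uniporters that let sugars pass down their concentration gradient, and the plant family falls into clades I to IV. Members of clade III sit mostly in the plasma membrane and move sucrose: SWEET11 and SWEET12 release it from phloem parenchyma cells of the leaf, from where proton symporters load it into the sieve tubes. SWEET16 and SWEET17 of clade IV and SWEET2 of clade I act at the vacuole membrane, where SWEET17 carries fructose and SWEET2 is known for holding glucose back in the root. Sugar that reaches roots through the phloem is split by invertases and sucrose synthases, and part of it is stored in vacuoles.

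The largest difference among the members was in SWEET11 (AT3G48740), the sucrose exporter of the phloem. Its signals were 893, 1877 and 1738 in the 50 kPa arrays, 269, 818 and 886 in the 50 kPa/NormOx arrays, and 2316, 1559.8 and 1675 in the 97 kPa arrays. The group means were 1503 ± 533 at 50 kPa, 658 ± 338 at 50 kPa/NormOx and 1850.5 ± 408 at 97 kPa (SD, n = 3 each). Every 50 kPa/NormOx array therefore lay below every 97 kPa array and also below every 50 kPa array, in the second case by a narrow margin, 893 in the lowest 50 kPa array and 886 in the highest 50 kPa/NormOx array. The 50 kPa and 97 kPa arrays overlapped. In order of level, 97 kPa and 50 kPa were neighbours that did not differ beyond their spread, and 50 kPa/NormOx came last.

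Set against 97 kPa, 50 kPa/NormOx gave SWEET11 a log2 change of -1.65 ± 0.37 (SE; 95% interval -2.43 to -0.87), a signal 3.14-fold lower. The unadjusted p of 0.000405 ranked 92 among all 15818 probe sets, and the adjusted p of 0.0680 (limma, Benjamini-Hochberg) missed the threshold of 0.05. With 3 arrays against 3, an exact two-sided permutation test on SWEET11 alone gave p = 0.1, the smallest value it can give. At 50 kPa against 50 kPa/NormOx the log2 change was 1.30 ± 0.37 (interval 0.52 to 2.08), 2.46-fold, with an adjusted p of 0.344 in limma. At 50 kPa against 97 kPa it was -0.35 ± 0.37 (interval -1.13 to 0.43), with an adjusted p of 0.808. These comparisons share arrays in pairs, so that the low 50 kPa/NormOx values enter both of the larger changes.

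The size of the SWEET11 difference rested in part on replicate 1 of 50 kPa/NormOx, whose signal of 269 was the lowest of the 9. Without that array the log2 change against 97 kPa was -1.10 (adjusted p = 0.117 in limma), and that of 50 kPa against 50 kPa/NormOx was 0.75 (adjusted p = 0.617). The 50 kPa group also had a low array, replicate 1 at 893, without which the change of 50 kPa against 97 kPa was -0.01. Over the alternative settings the change of 50 kPa/NormOx against 97 kPa kept its direction and ran from -1.96 to -1.10, with adjusted p from 0.0304 to 0.262, so that the call depended on the setting. In whole roots, fewer cells of a type and less RNA per cell cannot be told apart. Whether transcripts of SWEET12, the closest relative of SWEET11, also bind its probe set was not tested.

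**Figure D1:**
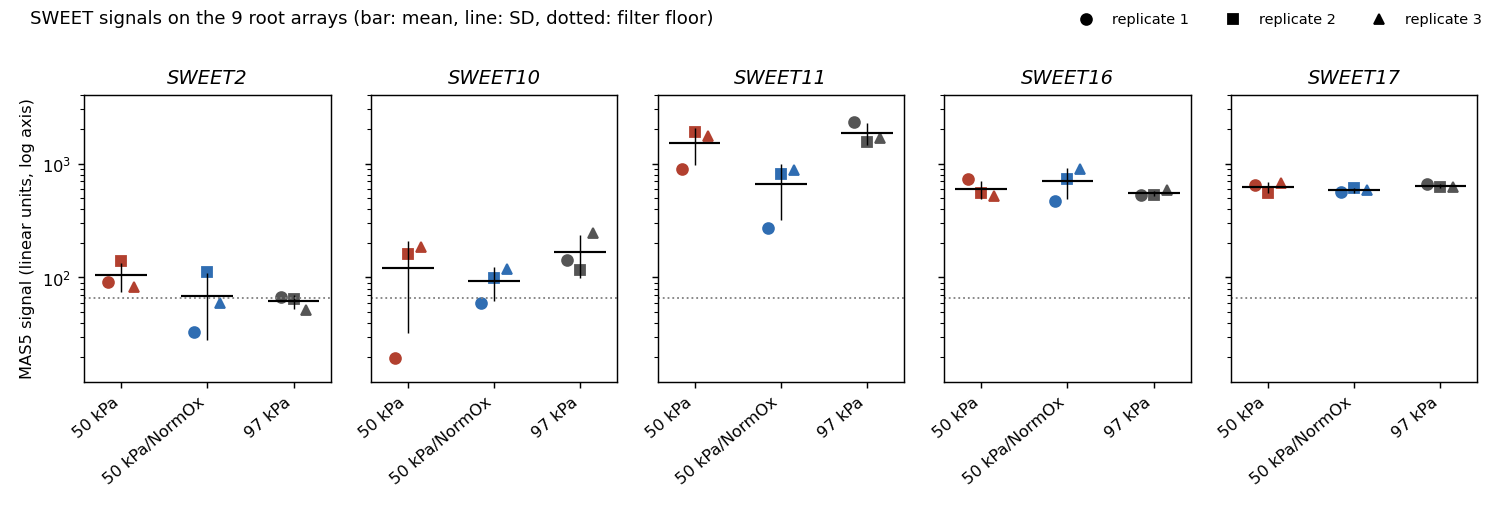
MAS5 signal of the 5 measured SWEET members on each of the 9 root arrays, on a log axis in linear signal units, by atmosphere (bar, mean; vertical line, SD; n = 3 each; dotted line, the filter floor at a signal of 66.7). The 50 kPa/NormOx arrays of SWEET11 lie between 269 and 886, below the 97 kPa arrays, which start at 1559.8, while SWEET16 and SWEET17 stay between 470.3 and 893 on all arrays.

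SWEET10 (AT5G50790), the other clade III member measured, is a plasma membrane sucrose transporter known for being switched on at the transition to flowering. Its probe set was dim, at percentile 36.8 of mean log2 signal, and 2 of 9 arrays lay under the floor of the filter. Signals were 19.7, 159.9 and 184 at 50 kPa, 59.6, 99.7 and 119 at 50 kPa/NormOx, and 143, 117 and 247 at 97 kPa, and the ranges of all 3 groups overlapped. The log2 change was -0.94 ± 0.66 at 50 kPa against 97 kPa (adjusted p = 0.694 in limma) and -0.85 ± 0.66 at 50 kPa/NormOx against 97 kPa (adjusted p = 0.641). Between 50 kPa and 50 kPa/NormOx it was -0.10 ± 0.66 (adjusted p = 0.982). A single array carried the first of these values: without 50 kPa replicate 1, at 19.7, it was 0.10. The 95% intervals of the 3 comparisons, -2.35 to 0.46, -2.26 to 0.56 and -1.50 to 1.31, all included a 2-fold difference.

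Among the vacuolar members, SWEET2 (AT3G14770), the glucose transporter of the root vacuole, was dim as well, and its highest single signal and highest group mean were at 50 kPa. It had 91.6, 138 and 82.4 in the 50 kPa arrays, 33.5, 112 and 59.6 in the 50 kPa/NormOx arrays, and 67.6, 65.3 and 51.9 in the 97 kPa arrays. All 50 kPa arrays exceeded all 97 kPa arrays, whereas the 50 kPa/NormOx arrays spread from below the 97 kPa range into the 50 kPa range. The means were 104 ± 29.96 at 50 kPa, 68.5 ± 40.2 at 50 kPa/NormOx and 61.6 ± 8.50 at 97 kPa (SD, n = 3 each), and none of the neighbouring means differed beyond the spread. In limma the log2 change was 0.73 ± 0.52 at 50 kPa against 97 kPa (interval -0.37 to 1.83, adjusted p = 0.697), -0.01 ± 0.52 at 50 kPa/NormOx against 97 kPa (adjusted p = 0.996) and 0.74 ± 0.52 at 50 kPa against 50 kPa/NormOx (adjusted p = 0.704). The probe set was close to the limit of the test, with 4 of 9 arrays under the floor, and whether they lay above background could not be told. Without replicate 1 of 50 kPa/NormOx, at 33.5, the change of 50 kPa against 50 kPa/NormOx was 0.31, and without replicate 2, at 112, it was 1.18.

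SWEET16 and SWEET17, the tonoplast transporters of clade IV, were bright and varied far less. SWEET17 (AT4G15920), a fructose transporter of root vacuoles, had 642, 548 and 672 at 50 kPa, 557, 613 and 582 at 50 kPa/NormOx, and 659, 619.7 and 627 at 97 kPa. The 50 kPa/NormOx arrays all lay below the 97 kPa arrays, but by little, and the 50 kPa arrays spread across both. Its log2 change was -0.12 ± 0.15 at 50 kPa/NormOx against 97 kPa (interval -0.44 to 0.20, adjusted p = 0.794 in limma). At 50 kPa it was -0.04 ± 0.15 against 97 kPa (interval -0.35 to 0.28) and 0.08 ± 0.15 against 50 kPa/NormOx (interval -0.23 to 0.40). None of these intervals reached a 2-fold change.

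SWEET16 (AT3G16690), which carries glucose, fructose and sucrose across the tonoplast, had 725, 555 and 517 at 50 kPa, 470.3, 727 and 893 at 50 kPa/NormOx, and 528, 529 and 582 at 97 kPa. The groups overlapped in every pair, and the 50 kPa/NormOx arrays were the most scattered, holding both the lowest and the highest signal of the 9. The log2 change was 0.12 ± 0.21 at 50 kPa against 97 kPa (interval -0.34 to 0.57), 0.30 ± 0.21 at 50 kPa/NormOx against 97 kPa (interval -0.15 to 0.76) and -0.19 ± 0.21 at 50 kPa against 50 kPa/NormOx (interval -0.64 to 0.27). All of its adjusted p-values in limma were at least 0.599, and its intervals did not reach a 2-fold change either. At 50 kPa/NormOx against 97 kPa, its value was 0.56 without replicate 1 of 50 kPa/NormOx and 0.099 without replicate 3. SWEET11 and SWEET16, both bright, thus differed in how their arrays ran: on replicate 1 of 50 kPa/NormOx both had their lowest signal, but on replicate 3 of that group SWEET16 had its highest while SWEET11 stayed below every 50 kPa and 97 kPa array.

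Counted together, 0 of the 5 members passed the test at 50 kPa against 97 kPa, where 0.0948% of all probe sets were called. At 50 kPa/NormOx against 97 kPa 0 of 5 passed, with 0.392% of all probe sets called, and at 50 kPa against 50 kPa/NormOx 0 of 5, with 0.0822% called (limma). At an unadjusted p under 0.05 there were 0, 1 and 1 members in these comparisons, the member being SWEET11 in both cases, where 9.38%, 12.7% and 9.06% of all probe sets passed. By the call rule of the study's methods, an unadjusted p under 0.01 with at least a 2-fold change, SWEET11 was called wherever 50 kPa/NormOx was compared, and no other member in any comparison. That rule called 0.639% of all probe sets at 50 kPa against 97 kPa, 0.898% at 50 kPa/NormOx against 97 kPa and 0.443% between 50 kPa and 50 kPa/NormOx. The study set the rule against its 97 kPa control, so that its use between 50 kPa and 50 kPa/NormOx is an extension made here.

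Members whose arrays did not overlap between groups numbered 1 at 50 kPa against 97 kPa (SWEET2), 2 at 50 kPa/NormOx against 97 kPa (SWEET11 and SWEET17) and 1 at 50 kPa against 50 kPa/NormOx (SWEET11). The same was found for 16.0%, 18.5% and 12.5% of all probe sets. The median log2 change of the 5 members was -0.04, -0.12 and 0.08 in these comparisons, beside -0.04, -0.02 and -0.02 over all probe sets tested. The member medians thus lay within 0.1 of those of all probe sets, and SWEET11 had the change farthest from its median in both comparisons with 50 kPa/NormOx.

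**Figure D2:**
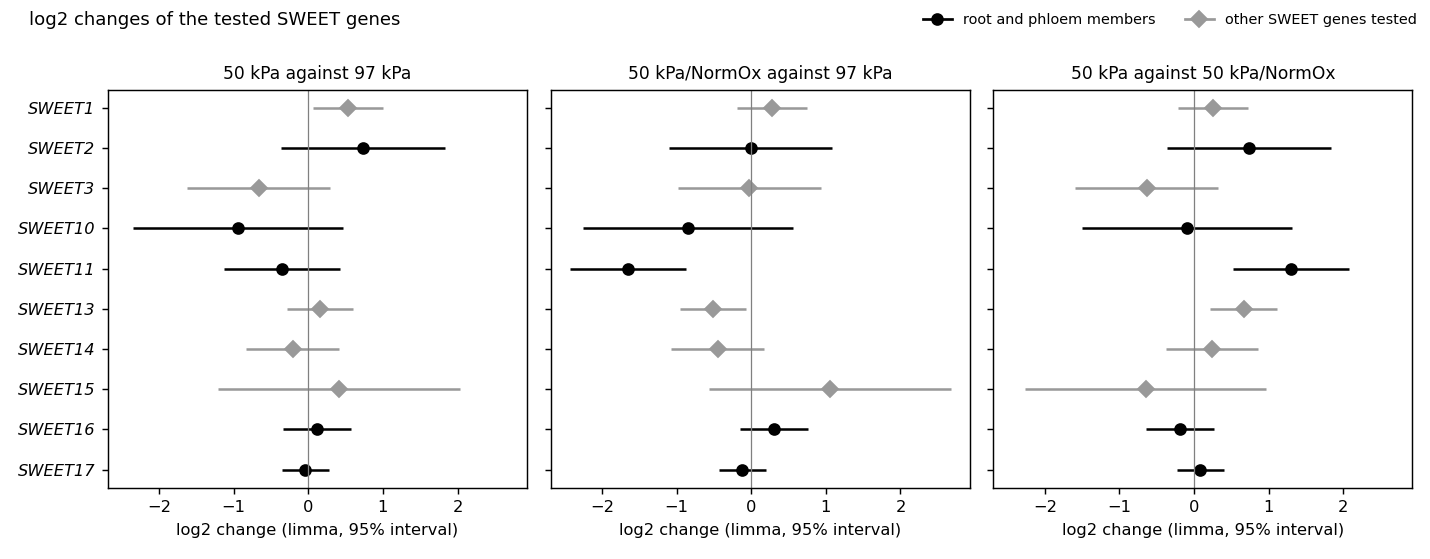
log2 change of the 10 tested SWEET genes in the 3 comparisons, with 95% intervals from limma (black circles, the members described here; grey diamonds, other SWEET genes). For SWEET11 the interval excludes 0 in the comparisons that hold 50 kPa/NormOx (-2.43 to -0.87 and 0.52 to 2.08), before adjustment over all probe sets.

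The rest of the family set these values in context. All 11 other SWEET genes had a probe set, of which 5 passed the filter (SWEET1, SWEET3, SWEET13, SWEET14 and SWEET15). None of the 5 was called in any comparison (limma). At an unadjusted p under 0.05 there was 1 per comparison: SWEET1 at 50 kPa against 97 kPa, and SWEET13 wherever 50 kPa/NormOx was compared. Of all probe sets, 9.38% had such a p at 50 kPa against 97 kPa. The share was 12.7% at 50 kPa/NormOx against 97 kPa and 9.06% at 50 kPa against 50 kPa/NormOx. The other 6 were dim: all of clade II, the hexose transporters SWEET4 to SWEET8, and SWEET9, the sucrose exporter of nectaries. Their signals were 3.19 to 105. With no detection calls, whether these transcripts were present could not be told, and the same holds for SWEET2 and SWEET10 on their dimmest arrays.

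SWEET13, a clade III sucrose transporter close to SWEET11 in function, came nearest to its pattern within the family. Its signals were 550.5, 477 and 409 at 50 kPa, 229.8, 321 and 367 at 50 kPa/NormOx, and 484, 451 and 357.5 at 97 kPa. The 50 kPa/NormOx arrays lay below all 50 kPa arrays and overlapped the 97 kPa arrays. The log2 change was 0.66 ± 0.21 at 50 kPa against 50 kPa/NormOx (unadjusted p = 0.00612, adjusted p = 0.407 in limma) and -0.51 ± 0.21 at 50 kPa/NormOx against 97 kPa (adjusted p = 0.317), and replicate 1 of 50 kPa/NormOx was again the lowest array. Of the 5 tested clade III genes, SWEET10, SWEET11, SWEET13 and SWEET14 had negative changes at 50 kPa/NormOx against 97 kPa, with a median of -0.51 over the clade, and SWEET15, the senescence-associated member also known as SAG29, was at 1.06 ± 0.76. In the whole tested family 7 of 10 genes were below 0 in this comparison. SWEET15 was dim, with 2 of 9 arrays under the filter floor, and its 97 kPa arrays had 16.4, 84.0 and 101. SWEET1, a glucose transporter of clade I, had 327, 293 and 323 at 50 kPa and 163, 256 and 246 at 97 kPa, groups that did not overlap, for a log2 change of 0.53 ± 0.22 (adjusted p = 0.487). SWEET3, of the same clade, ran the other way without overlap, with 67.2, 58.9 and 85.5 at 50 kPa and 123, 95.8 and 114 at 97 kPa. Its change was -0.66 ± 0.45 (adjusted p = 0.689 in limma). Of all probe sets, 16.0% did not overlap in this comparison.

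Genes that handle the sugar moved by SWEET proteins were read from lists of textbook members, of which the annotation named only some. The vacuolar invertase BFRUCT3 (AT1G62660), which splits sucrose into glucose and fructose inside the vacuole, rose at 50 kPa/NormOx against 97 kPa. It had 2138, 2047 and 3129 at 50 kPa/NormOx and 1343, 1104 and 1324 at 97 kPa, with no overlap, and a log2 change of 0.93 ± 0.18 (1.91-fold, adjusted p = 0.0366 in limma). At 50 kPa it had 2173, 1616 and 1518, also above every 97 kPa array, with a change of 0.48 ± 0.18 (adjusted p = 0.428). Between 50 kPa and 50 kPa/NormOx it was -0.45 ± 0.18 (adjusted p = 0.484). BFRUCT3 was the only gene with a listed probe set among the 10 invertases and sucrose synthases looked up. Other sucrose synthases, SUS1 among them, were not looked up. Its call was lost without any of the 97 kPa arrays or without replicate 1 or 3 of 50 kPa/NormOx (changes of 0.74 to 1.02, adjusted p of 0.0555 to 0.182), and also without the intensity trend in the prior variance (adjusted p = 0.211). The call rule of the study's methods, with its 2-fold minimum, did not call BFRUCT3 either.

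Of 8 tonoplast sugar carriers, 4 were listed and tested, and 0 were called in any comparison, also 0 at an unadjusted p under 0.05 (limma). Their median change at 50 kPa/NormOx against 97 kPa was 0.14. TMT1, the proton antiporter that loads glucose and sucrose into the vacuole, was at 0.27 ± 0.14 (adjusted p = 0.460), and its relative TMT3 was at 0.38 ± 0.59. Of 7 hexose carriers of the plasma membrane only STP3 was listed, and its changes of -0.27, -0.17 and -0.10 in the 3 comparisons were all smaller than their SE of 0.37. The sucrose symporters with the phloem proton pump (7 genes), the sugar starvation genes (9) and the xylem markers (6) had no listed probe set and were not analysed here.

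Markers of other tissues were read on the same arrays, since SWEET11 is a gene of phloem and is known mostly from leaves. The root marker PYK10, the abundant beta-glucosidase of root endoplasmic reticulum bodies, had signals of 15871 to 21454 over the 9 arrays, and EXPA7, an expansin of root hairs, had 201 to 466. Only these 2 of 5 root markers were listed, and neither was called in any comparison. No shoot array was among the 9, so that these signals alone do not tell the tissue. Photosynthesis and leaf genes were also bright: LHCB4.1, RCA and STOMAGEN, 3 of the 8 shoot markers, were listed, and LHCB4.2, PSAE-1 and PRK were added after probe names had been read. Of the added phloem and shoot markers, some were named after their values were seen. None of the 6 passed the adjusted threshold in any comparison (limma). All 6 had positive changes at 50 kPa against 50 kPa/NormOx, the direction of SWEET11, and 3 of them had an unadjusted p under 0.05: LHCB4.2 at 0.80 ± 0.26 (adjusted p = 0.407), LHCB4.1 at 0.72 ± 0.23 (adjusted p = 0.409) and PRK at 0.67 ± 0.24 (adjusted p = 0.454). Of all probe sets, 9.06% had such a p in this comparison. Only LHCB4.1 of these 3 was on the planned list. At 50 kPa/NormOx against 97 kPa, 4 of the 6 were below 0, the lowest LHCB4.2 at -0.47 ± 0.26, and STOMAGEN and RCA were above 0.

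At 50 kPa against 97 kPa all 6 shoot markers were above 0. STOMAGEN, a leaf peptide that promotes stomata, had 903, 837 and 493 at 50 kPa and 246, 363 and 319 at 97 kPa, a log2 change of 1.24 ± 0.34 (2.36-fold, adjusted p = 0.267 in limma) that met the call rule of the study's methods. LHCB4.1, a chlorophyll-binding antenna protein, also had no overlap between these groups, with a change of 0.46 ± 0.23. The summed signal of the 6, in which the brightest probe sets weigh most, was 18956 to 28996 at 50 kPa, 10857 to 26302 at 50 kPa/NormOx and 13582 to 21020.5 at 97 kPa, ranges that overlapped between all groups.

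Replicate 1 of 50 kPa/NormOx had both the lowest SWEET11 signal and the lowest shoot sum, 10857. Replicate 2 of that group had a shoot sum of 26302, above all 97 kPa arrays, and a SWEET11 signal of 818, below all of them. Replicate 1 of 97 kPa paired the highest SWEET11 signal, 2316, with a shoot sum of 13582, the lowest of its group. Plastid-encoded genes, which root plastids also carry, set the 50 kPa/NormOx arrays apart, unlike this sum. The median signal of their 69 probe sets was 1744 to 2250.1 at 50 kPa, 1206 to 1482 at 50 kPa/NormOx and 1621 to 1944 at 97 kPa. Every 50 kPa/NormOx array, replicate 2 at 1482 among them, was thus below every 50 kPa and every 97 kPa array, as was the case for SWEET11. The part of shoot tissue or of plastid transcripts in the SWEET11 values was not tested.

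Of 13 phloem markers only OPS, a regulator of protophloem differentiation, was listed, at 64.1, 119 and 159 in 50 kPa/NormOx arrays and 257, 169 and 163 in 97 kPa arrays, with no overlap and a log2 change of -0.85 ± 0.34 (adjusted p = 0.304 in limma). Its array at 64.1 lay under the filter floor of 66.7. The peptide genes CLE41 and CLE44, made in phloem and known to act on the neighbouring procambium, and CLE26 of the root protophloem were added to it. They were not on the planned list, and some added markers were named after their values were seen. Their summed signal with OPS is therefore a description and no test of phloem content. CLE41 and CLE44 were at -0.65 ± 0.18 (adjusted p = 0.146) and -0.75 ± 0.28 (adjusted p = 0.271) at 50 kPa/NormOx against 97 kPa, CLE26 at -0.27 ± 0.37, and none of the 4 phloem genes was called in any comparison. Their summed signal was 1011 to 1239 at 50 kPa, 928 to 1093 at 50 kPa/NormOx and 1342 to 1988 at 97 kPa. The sum was thus lower on every low-pressure array than on any 97 kPa array, at 50 kPa too, where SWEET11 overlapped the 97 kPa arrays. CLE41, the brightest of the 4 at 456 to 1036, weighs most in this sum. Taken singly at 50 kPa against 97 kPa, OPS, CLE41 and CLE26 did not overlap and CLE44 did, where 16.0% of all probe sets had no overlap. For CLE26 the 97 kPa arrays had 402, 128 and 135, against 112 to 123 at 50 kPa. The 97 kPa replicate 1 had the highest phloem sum and the highest SWEET11 signal of all arrays. The part of phloem cell number in the SWEET11 values was not tested.

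**Figure D3:**
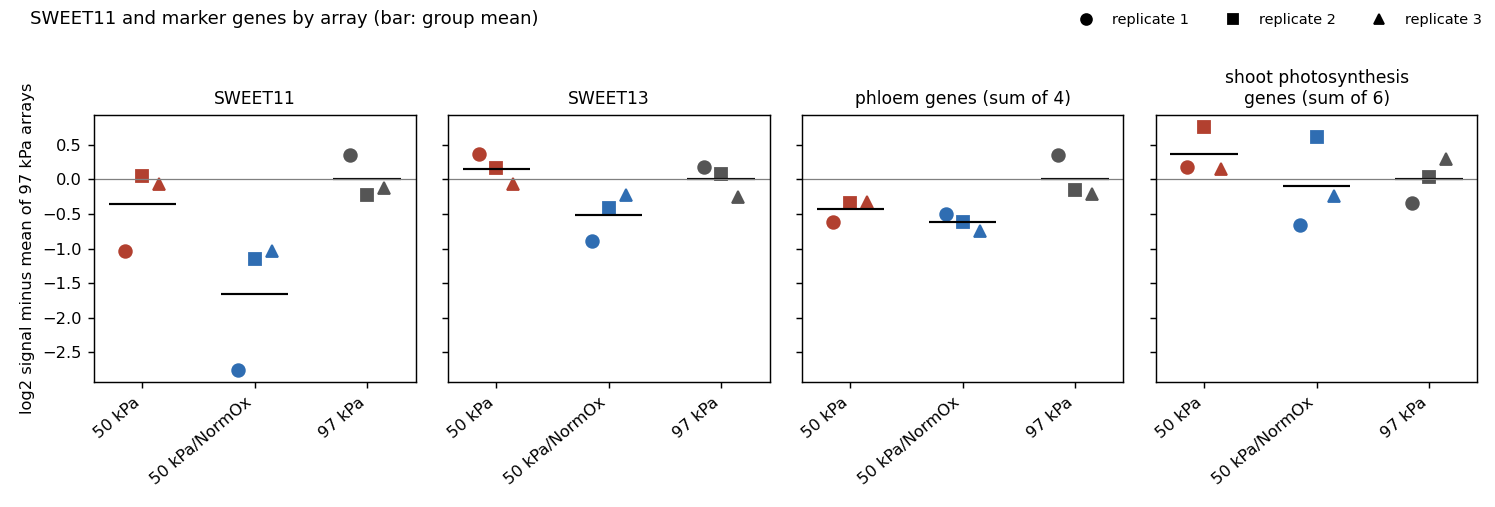
log2 signal of SWEET11, SWEET13, the sum of 4 phloem genes and the sum of 6 shoot photosynthesis and leaf genes on each array, as a difference from the mean of the 97 kPa arrays (bar, group mean; n = 3 each). The phloem sum is lower on all 50 kPa and 50 kPa/NormOx arrays (928 to 1239) than on 97 kPa arrays (1342 to 1988). CLE41 weighs most in this sum, and its genes other than OPS were added beyond the planned list. SWEET11 is below the 97 kPa range on all 50 kPa/NormOx arrays but on only 1 of the 50 kPa arrays.

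The genes whose array pattern ran closest to each member were found by Pearson's r of log2 signal over the 9 arrays, among 8688 other tested probe sets that named a single gene. These are descriptions, since the arrays fall into 3 groups and share a normalization. For SWEET11 they were SIR, the sulfite reductase of plastids (r = 0.956), AT2G39850 (0.941) and the calmodulin-like gene CML30 (0.928). SIR had mean signals of 3211 at 50 kPa, 2633 at 50 kPa/NormOx and 3542 at 97 kPa, the same order of groups as SWEET11 over a narrower range. SWEET13 had an r of 0.749 with SWEET11, rank 216 of the 8688, the highest in the family.

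SWEET2 ran closest to AT2G34460 (r = 0.962), AT4G02530 (0.955) and AT1G14345 (0.953), and SWEET10 to the tetraspanin gene TET5 (0.964), AT4G02485 and AT1G27290. The closest to SWEET16 were AT3G62780 (0.948), AT4G13580 and the class III peroxidase gene AT5G17820 (0.944 each), and to SWEET17 AT2G36290 (0.964), AT1G42705 and AT1G61550. No member was among the 3 genes closest to another member, and SWEET16 and SWEET17, of the same clade, had an r of -0.04. SWEET11 and SWEET2 had an r of 0.50, and SWEET11 and SWEET10 of 0.57.

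Array quality set the frame for these values. The median signal of the 9 arrays ran from 196 to 217. The correlation of log2 signals between arrays of a group was at least 0.944. The 50 kPa/NormOx arrays all correlated more with an array of another group than with any of their own: replicate 1 up to 0.949 outside and 0.947 inside, replicate 2 up to 0.960 outside and 0.946 inside, and replicate 3 up to 0.954 outside and 0.947 inside. Replicate 1, the array with the lowest SWEET11 signal, also had the highest mean signal of 9 hybridization spike probe sets, 17691, where the other arrays had 10014 to 14064, and the part of this in its SWEET11 value was not tested. SWEET11 did not pass the test with all 9 arrays, nor without replicate 1, as given above. Without replicate 3 its change at 50 kPa/NormOx against 97 kPa was -1.96 (adjusted p = 0.0797 in limma). Without replicate 2, SWEET11 at 50 kPa/NormOx against 97 kPa had a log2 change of -1.90 and passed the test (adjusted p = 0.0403 in limma), and at 50 kPa against 50 kPa/NormOx its change was 1.55 (adjusted p = 0.0809).

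**Figure D4:**
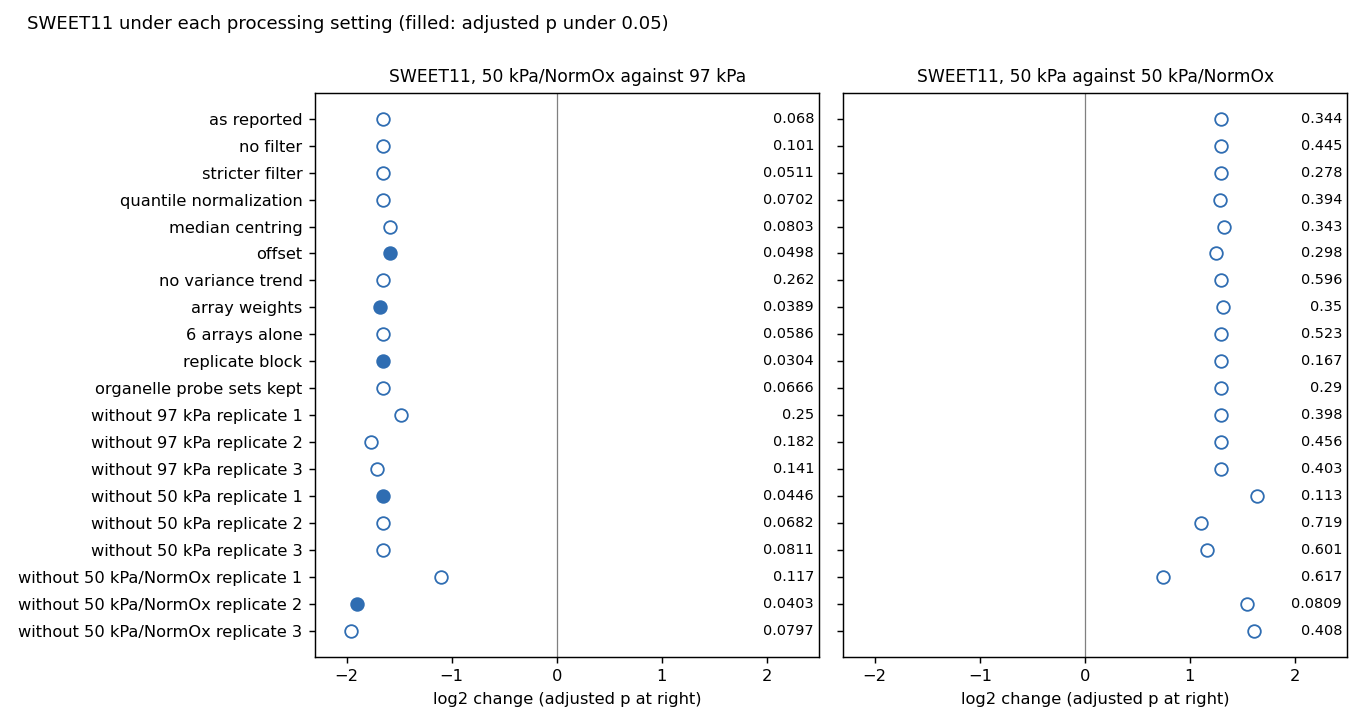
log2 change of SWEET11 under each processing setting, for 50 kPa/NormOx against 97 kPa (left) and for 50 kPa against 50 kPa/NormOx (right), with the adjusted p from limma printed at right (filled circles, adjusted p under 0.05). The direction holds throughout, from -1.96 to -1.10 and from 0.75 to 1.64, and 5 alternatives pass the threshold in the first comparison against none in the second.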

How the data were processed

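Total RNA from roots was labelled and hybridised to ATH1 arrays. The deposited values are linear MAS5 signal intensities that the authors made with Affymetrix Expression Console and scaled to a trimmed mean of 500.1 per array. No source used here gives a software version or a genome build. The study itself tested robust multi-chip averages, and those values were not used. The deposited intensities carry no detection calls, and scaling of this kind conceals any change in the total amount of mRNA. The number of arrays limits the precision.

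Of 22810 probe sets, 64 controls and 148 organelle probe sets were left out, 79 of the latter known only from neighbouring probe numbers. The lowest 30% by mean log2 signal were then left out, at a signal of 66.7, which left 15818. Signals were taken to log2 without an offset and fitted over 9 arrays with limma 3.58.1 (R 4.3.3), with an intensity trend in the prior variance and two-sided moderated tests. The threshold for a call was 0.05 on p-values adjusted by Benjamini and Hochberg over all 15818. The 3 groups came from the sample titles and were compared in all 3 pairs. The code was tested on simulated data. Gene names came from the platform annotation, where 13513 named 1 gene, 503 several and 8794 were not listed, and 13436 of the 13513 were matched in the TAIR10.1 gene table.

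The members and gene lists were chosen with earlier results of these data known. Named genes were all members, and from each list its called genes or otherwise the 2 with the smallest p; the 3 probe sets closest to each member; and the brightest listed markers. SWEET3, SWEET14 and SWEET15 and the added phloem and shoot markers are named beyond that rule, some after their values were seen.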

Additional observations from a re-analysis of the deposited data

How the results depend on the processing

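The log2 changes of the members, and of SWEET1, SWEET13 and BFRUCT3 as a choice made after seeing the data, were recomputed with no filter, a stricter filter (lowest 50% left out, which removes SWEET2 and SWEET10), quantile normalization, median centring, an offset of 32, no intensity trend, array weights, the 6 arrays of a comparison alone, the replicate number as a block, organelle probe sets kept, and each array left out in turn; each group then kept at least 2 arrays. At 50 kPa/NormOx against 97 kPa, SWEET11 became the 1 member called with the offset (-1.59, adjusted p = 0.0498), with array weights (-1.68, adjusted p = 0.0389), with the replicate block (-1.65, adjusted p = 0.0304) and by the methods' call rule (-1.65), and its values with an array left out ran from -1.96 to -1.10, with 0 to 1 members called. At 50 kPa against 50 kPa/NormOx the methods' call rule called 1 member, SWEET11 (1.30). Changes near 0 turned sign. With median centring, SWEET17 was at 0.043 at 50 kPa against 97 kPa. At 50 kPa/NormOx against 97 kPa, SWEET2 was at 0.025 with quantile normalization, 0.051 with median centring and 0.031 with the offset. SWEET10 was at 0.079 with the offset at 50 kPa against 50 kPa/NormOx. With an array left out, the ranges at 50 kPa against 97 kPa were -1.52 to 0.10 for SWEET10, 0.32 to 0.65 for SWEET1, -0.028 to 0.22 for SWEET16 and -0.10 to 0.049 for SWEET17. At 50 kPa/NormOx against 97 kPa, SWEET2 ran from -0.45 to 0.42, SWEET10 from -1.08 to -0.54, SWEET13 from -0.65 to -0.32 and SWEET16 from 0.099 to 0.56. At 50 kPa against 50 kPa/NormOx, SWEET2 ran from 0.31 to 1.18, BFRUCT3 from -0.61 to -0.26, SWEET10 from -0.67 to 0.95, SWEET11 from 0.75 to 1.64, SWEET17 from 0.023 to 0.17 and SWEET16 from -0.44 to 0.019. The cause of these shifts was not tested.

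The replicate numbers were not taken to pair the arrays, since the deviations of same-numbered arrays from their group means correlated at -0.05 to 0.11. For a 50 kPa array the sample description gave another replicate number than the title. The title was used, and the fit with the replicate block rests on that choice. The block changed the call of no other member. Over all probe sets it gave 30 calls, against 15, at 50 kPa against 97 kPa, 86 against 62 at 50 kPa/NormOx against 97 kPa and 28 against 13 at 50 kPa against 50 kPa/NormOx. Without the intensity trend these counts were 6, 0 and 4, and 1800 probe sets still had an unadjusted p under 0.05 at 50 kPa/NormOx against 97 kPa. With an array left out they ran from 8 to 53, 2 to 104 and 8 to 94. Median centring gave 27, 53 and 12 calls, of which 32 of 53 were higher at 50 kPa/NormOx against 97 kPa, where 29 of 62 were higher without it; it moved the median of all probe sets at 50 kPa against 97 kPa to 0.039, against -0.042. Array weights gave 35, 121 and 12 calls, the 6 arrays alone 62, 103 and 12, and the offset 24, 84 and 13. Each member had 1 listed probe set, so that choosing another gave no value, and values from the robust multi-chip average were not run.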
